A study of Mus musculus with 8 samples.

Results

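The immediate early genes examined in the hippocampus of Mbd2-/- mice are a set of 10, namely Fos, Fosb, Junb, Egr1, Egr2, Egr3, Nr4a1, Npas4, Arc and Ier2. They were picked out by gene symbol from the 19201 genes of the expression table. All 10 had a mean normalized count of at least 10 and were among the 14504 genes tested. In Mbd2-/- hippocampi 1 of the 10, Egr1, was lower after adjustment over all tested genes, and none was higher, where 10.0% of all tested genes were lower and 12.0% higher. Egr1 fell by 20.7%, and Arc and Npas4 had higher means that did not pass the adjusted threshold.

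Immediate early genes are transcribed within minutes of synaptic activity and need no new protein for their induction. Calcium entering through NMDA receptors and voltage-gated channels activates kinases, which act on the factors CREB and SRF already sitting at these promoters. Most of the genes encode transcription factors that switch on a later wave of targets, while Arc encodes a protein that works at the synapse itself. In the hippocampus they are widely used as marks of recently active neurons and are needed for lasting memory, and their RNAs decay quickly.

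RNA was taken from the bilateral hippocampi of mice aged 10 to 12 weeks that had been kept in groups. The wild-type group, called control in the labels with the genotype C57BL/6, and the Mbd2-/- group, homozygous for a targeted allele of the gene for a methyl-CpG-binding protein in all of its cells, were littermates of heterozygous parents according to the methods of the study. Each of the 4 libraries of a genotype pooled the hippocampi of 2 mice, so the spread between libraries is that between pools. According to the study, hippocampi of both sexes were used in balanced numbers between the groups, and its text does not give the sexes within each pool. The labels name no treatment or stimulus, nor how the mice were handled just before death. Recovered reads on genes ran from 8439570 to 23790825 in the wild-type libraries and from 8087750 to 14020765 in the Mbd2-/- libraries.

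The library labels were checked on Mbd2 itself. Its normalized count, meaning reads on the gene divided by the size factor of the library, was 295, 363, 371 and 354 in wild-type replicates 1 to 4 and 244, 239.6, 339.5 and 217 in the Mbd2-/- replicates. The log2 difference was -0.43 (SE 0.12, limma adjusted p = 0.0174), with an overlap between the groups at Mbd2-/- replicate 3. The call was lost in 3 of the 8 fits that left out 1 library, those without Mbd2-/- replicate 1, Mbd2-/- replicate 2 or wild-type replicate 3. Reads from parts of the gene that remain in the allele still count towards Mbd2, so these values check the labels only in part. Mbd2-/- replicate 4 stood apart from the other Mbd2-/- libraries, since its deviations from the mean of all libraries correlated with transcript length over 14182 genes with a Spearman's rho of 0.15, against -0.45, -0.36 and -0.44 in Mbd2-/- replicates 1 to 3 and 0.29 to 0.36 in the wild-type libraries. Genotype calls that rest on this library are given with and without it. SDs, coefficients of variation and variances relative to counting are given with it only.

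Windows of the RefSeq promoter table ran from 250 bases before to 50 bases after a transcript start on GRCm38.p6. They were searched for 6 of the 10 genes, namely Fos, Fosb, Junb, Egr2, Nr4a1 and Npas4. No window of Arc, Egr1, Egr3 or Ier2 was searched, so their promoters are not described. Below are 4 of the searched windows, 1 for a gene of each factor family among the 6 genes. They are printed to show where the letters of the CREB and SRF elements stand. Capitals mark the half-site of the cAMP response element, TGACG or its reverse complement CGTCA, and the CArG box, to which SRF binds.
Fos promoter, chr12:85473640-85473939 on the plus strand: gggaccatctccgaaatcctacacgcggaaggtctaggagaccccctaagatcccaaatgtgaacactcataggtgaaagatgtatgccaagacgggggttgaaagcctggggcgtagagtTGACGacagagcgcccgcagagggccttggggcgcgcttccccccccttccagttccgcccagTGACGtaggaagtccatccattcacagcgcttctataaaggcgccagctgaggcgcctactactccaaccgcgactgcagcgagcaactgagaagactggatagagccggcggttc
Egr2 promoter, chr10:67537619-67537918 on the plus strand: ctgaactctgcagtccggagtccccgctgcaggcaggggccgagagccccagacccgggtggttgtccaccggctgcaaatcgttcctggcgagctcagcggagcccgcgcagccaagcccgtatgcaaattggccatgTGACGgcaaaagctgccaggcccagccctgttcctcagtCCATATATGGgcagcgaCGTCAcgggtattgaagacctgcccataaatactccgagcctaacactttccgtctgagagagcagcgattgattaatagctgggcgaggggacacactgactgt
Nr4a1 promoter, chr15:101266596-101266895 on the plus strand: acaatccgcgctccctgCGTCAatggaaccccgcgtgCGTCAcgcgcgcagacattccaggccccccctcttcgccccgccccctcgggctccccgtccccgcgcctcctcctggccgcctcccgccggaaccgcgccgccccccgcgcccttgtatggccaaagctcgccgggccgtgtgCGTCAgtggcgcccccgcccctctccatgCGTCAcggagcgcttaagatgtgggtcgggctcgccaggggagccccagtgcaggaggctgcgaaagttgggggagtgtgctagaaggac
Npas4 promoter, chr19:4989922-4990221 on the minus strand: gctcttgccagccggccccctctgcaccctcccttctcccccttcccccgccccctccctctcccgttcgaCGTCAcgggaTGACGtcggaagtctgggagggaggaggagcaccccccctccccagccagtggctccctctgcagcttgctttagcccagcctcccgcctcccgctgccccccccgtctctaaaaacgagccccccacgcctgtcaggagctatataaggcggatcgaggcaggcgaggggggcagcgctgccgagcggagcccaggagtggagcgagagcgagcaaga
In Fos, the prototype of the class, half-sites began at -129 and -66 from the transcript start. Egr2, from the third of its 5 listed windows, held half-sites at -111 and -55 on either side of a CArG box at -72. This window was shown because it holds both elements, whereas the first of the 5 Egr2 windows held neither and the second a CArG box without a half-site. The Nr4a1 window held 4 half-sites, at -233, -213, -69 and -40, and Npas4 a pair at -179 and -169. At least 1 half-site was present in 8 of the 10 windows of the 6 genes, which overlap in part for Egr2, and in 20.8% of all 32851 RefSeq windows of this length, on either strand. A CArG box was found in 4 of the 10 windows, all of Egr2, and in 1.63% of all windows. The full palindromic element was found in 0 of the 10 and in 1.79% of all windows. These matches are letters in a window and not measured binding, and elements outside the windows, such as those more than 250 bases before a start, were not searched.

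Of the 10 genes, 1 was lower and 0 were higher at an adjusted p under 0.05 (limma on log2(normalized count + 1), Benjamini-Hochberg adjustment over all tested genes). Over all 14504 tested genes, 10.0% were called lower and 12.0% higher in Mbd2-/- hippocampi, so the count among the immediate early genes was near or below the background. Arc and Npas4, both with higher means, had limma adjusted p-values of 0.0730 and 0.0949 and were not called. edgeR and DESeq2 on the recovered reads likewise called 1 lower and 0 higher. The median of the 10 log2 differences was -0.06, with 4 of the 10 above 0, and the median over all tested genes lay within 0.001 of 0. The 4 wild-type and 4 Mbd2-/- libraries did not overlap in 3 of the 10 genes, Egr1 and Egr3 downwards and Npas4 upwards, and in 23.6% of all tested genes. In whole tissue, fewer active cells and less RNA per active cell cannot be told apart.

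**Figure D1:**
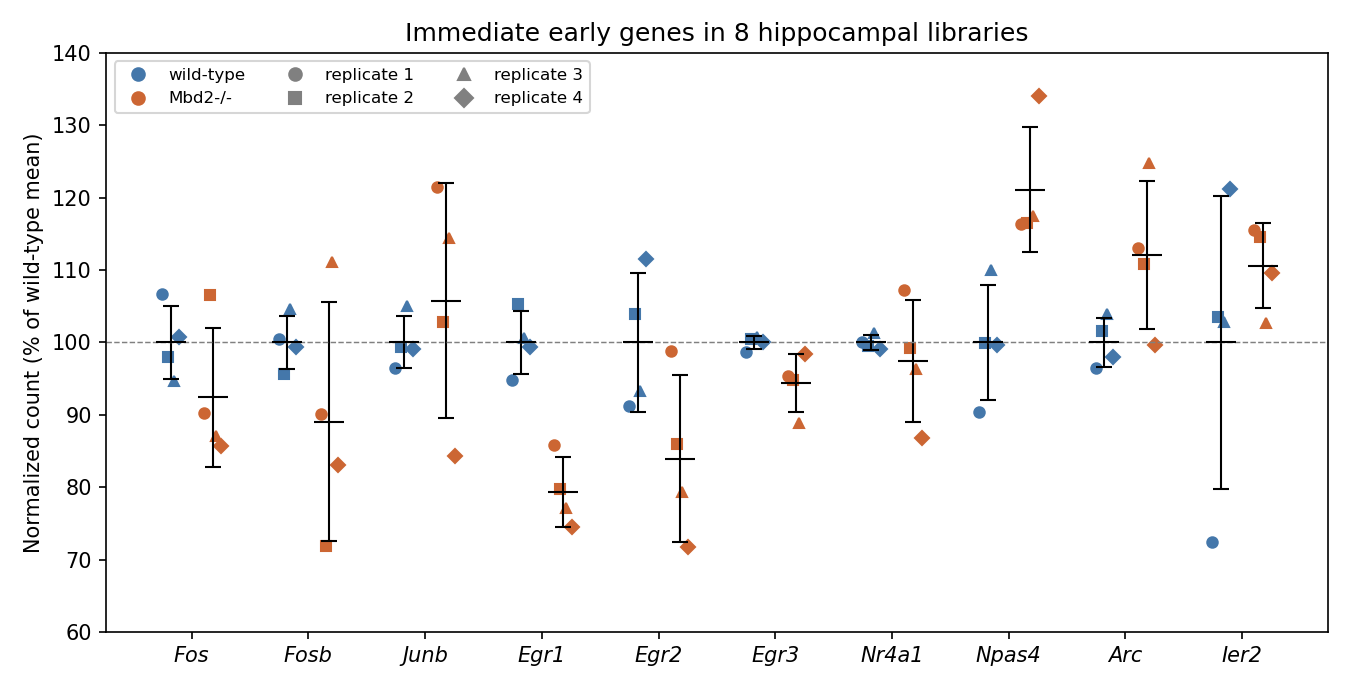
Normalized count of each immediate early gene in each library, as a percentage of the wild-type mean, with wild-type libraries in blue, Mbd2-/- libraries in orange and a marker shape for each replicate number. Black bars give the mean and SD over 4 libraries, and the orange points lie wholly below the blue ones for Egr1 and Egr3 and wholly above them for Npas4.

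The Egr genes encode zinc-finger factors that bind a shared GC-rich element, and all 3 had lower means in Mbd2-/- hippocampi, of which Egr1 passed the test. Egr1, also known as Zif268 and required for late phases of synaptic potentiation, had normalized counts of 1394, 1548, 1479 and 1461 in wild-type replicates 1 to 4 and of 1263, 1173, 1135 and 1095.5 in Mbd2-/- replicates 1 to 4. Every Mbd2-/- library lay below every wild-type library. The log2 difference was -0.33 (SE 0.06, limma adjusted p = 9.87e-04, with a 95% interval from -0.46 to -0.21), and the exact two-sided permutation test gave p = 0.0286, the smallest that 4 against 4 libraries allow.

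Egr1 was called lower under 8 of 8 other settings with all libraries kept, with log2 differences from -0.34 to -0.33, and in 8 of 8 fits that left out 1 library, with differences from -0.37 to -0.31. The gene lies on chromosome 18 of mm9, from 35020861 to 35024638 on the plus strand, on the same chromosome as Mbd2 and 35.7 Mb from its start. Gm17507, annotated on the opposite strand, overlaps the last part of Egr1, and whether the authors counted reads by strand is not given in the sources used here.

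Egr3, a close relative that muscle spindles also need for their development, had normalized counts of 1220.0, 1243, 1246 and 1238 in wild-type and of 1179.9, 1173, 1099.8 and 1217 in Mbd2-/- replicates 1 to 4. The groups did not overlap, but the gap was small, with 1220.0 as the lowest wild-type and 1217 as the highest Mbd2-/- value. The log2 difference of -0.08 (SE 0.05) had a limma adjusted p of 0.266 and a 95% interval from -0.19 to 0.03. With the trend of the differences with transcript length removed it was -0.26 (limma adjusted p = 0.00565).

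Egr2, best known for its part in hindbrain patterning and myelination, was the least abundant of the 10. Its normalized counts were 33.0, 37.6, 33.7 and 40.4 in wild-type and 35.8, 31.1, 28.7 and 25.9 in Mbd2-/- libraries. The groups overlapped at Mbd2-/- replicate 1, and the log2 difference of -0.25 (SE 0.17, limma adjusted p = 0.312) had a wide 95% interval, from -0.61 to 0.11.

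Fos, Fosb and Junb encode subunits of AP-1, a dimer of a Fos and a Jun protein, and none of them passed the test. Fos had normalized counts of 219, 201, 194 and 207 in wild-type and 185, 219, 179 and 176 in Mbd2-/- replicates 1 to 4. Mbd2-/- replicates 1, 3 and 4 lay below the whole wild-type range, and replicate 2 lay at its top. The log2 difference of -0.12 (SE 0.09, limma adjusted p = 0.364) had a 95% interval from -0.31 to 0.07, and it was -0.20 with the trend with transcript length removed.

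Fosb, whose splice form deltaFosB is long-lived and builds up with repeated activity, had normalized counts of 114, 108, 119 and 113 in wild-type and 102, 81.4, 126 and 94.2 in Mbd2-/- libraries. Its Mbd2-/- values spread to both sides of the wild-type range, with replicate 3 the highest and replicate 2 the lowest of all 8. This left a log2 difference of -0.18 (SE 0.12, limma adjusted p = 0.307), with a 95% interval from -0.44 to 0.08. Reads of the splice forms are not separated in a table by gene.

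Junb, the Jun partner in the set, had normalized counts of 571, 588, 622 and 587 in wild-type and 719, 609, 677 and 499 in Mbd2-/- libraries. Mbd2-/- replicates 1 and 3 lay above the whole wild-type range and replicate 4 below it. With all libraries the log2 difference was 0.07 (SE 0.09, limma adjusted p = 0.630), and without Mbd2-/- replicate 4 it was 0.17 (limma adjusted p = 0.0342). Its sign depended on the processing, since it was -0.05 once the trend with transcript length was removed.

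Nr4a1, an orphan nuclear receptor also called Nur77, and Npas4, a bHLH-PAS factor that in neurons responds selectively to calcium and shapes inhibitory synapses, are the remaining factors of the set, and neither passed the test. Npas4 had normalized counts of 67.4, 74.5, 82.0 and 74.4 in wild-type and 86.8, 86.9, 87.7 and 99.9 in Mbd2-/- replicates 1 to 4. Every Mbd2-/- library lay above every wild-type library. The log2 difference was 0.27 (SE 0.11, with a 95% interval from 0.03 to 0.51), with an exact permutation p of 0.0286 and a limma adjusted p of 0.0949, so the separation did not pass the adjustment over all genes.

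The Nr4a1 values were 686, 682, 696 and 680.4 in wild-type libraries and 736, 681, 661 and 596 in Mbd2-/- libraries. The wild-type libraries lay within a few percent of each other, while Mbd2-/- replicate 1 was above and replicates 3 and 4 were below all of them. Their log2 difference of -0.04 (SE 0.07, limma adjusted p = 0.693) had a 95% interval from -0.18 to 0.10, and it was -0.09 with the length trend removed.

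Arc, the one effector gene of the set, encodes a capsid-like protein that removes AMPA receptors from synapses. Its normalized counts were 2050.4, 2159, 2211 and 2084 in wild-type and 2403, 2358, 2652 and 2119 in Mbd2-/- replicates 1 to 4. Mbd2-/- replicates 1 to 3 lay above every wild-type library, and replicate 4 lay inside the wild-type range. The log2 difference was 0.16 (SE 0.06, limma adjusted p = 0.0730, with a 95% interval from 0.03 to 0.29).

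Without Mbd2-/- replicate 4 the difference in Arc was 0.22 (limma adjusted p = 0.00105), and Arc and Junb were then the 2 of the 10 genes called higher, with Egr1 still the 1 called lower. That fit called 5156 genes in all, 17.9% of its tested genes higher and 17.7% lower. The values of Arc relative to Egr1, which do not depend on the scaling of a library, ran from 1.39 to 1.495 in wild-type and from 1.90 to 2.34 in Mbd2-/- libraries. This ratio was picked after the values of both genes were seen. Of the 9 ratios of the other immediate early genes to Egr1, 6 separated the groups, as did 53.9% of the ratios of 14503 tested genes to Egr1.

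Ier2, first known as a gene that growth factors induce at once, had normalized counts of 58.5, 83.5, 83.0 and 97.7 in wild-type and 93.2, 92.4, 82.9 and 88.4 in Mbd2-/- libraries. The Mbd2-/- values lay inside the wild-type range, which wild-type replicate 1 extended downwards. The log2 difference was 0.17 (SE 0.14, limma adjusted p = 0.427), with a 95% interval from -0.13 to 0.46. It was 0.0035 with the length trend removed and 0.10 in edgeR.

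**Figure D2:**
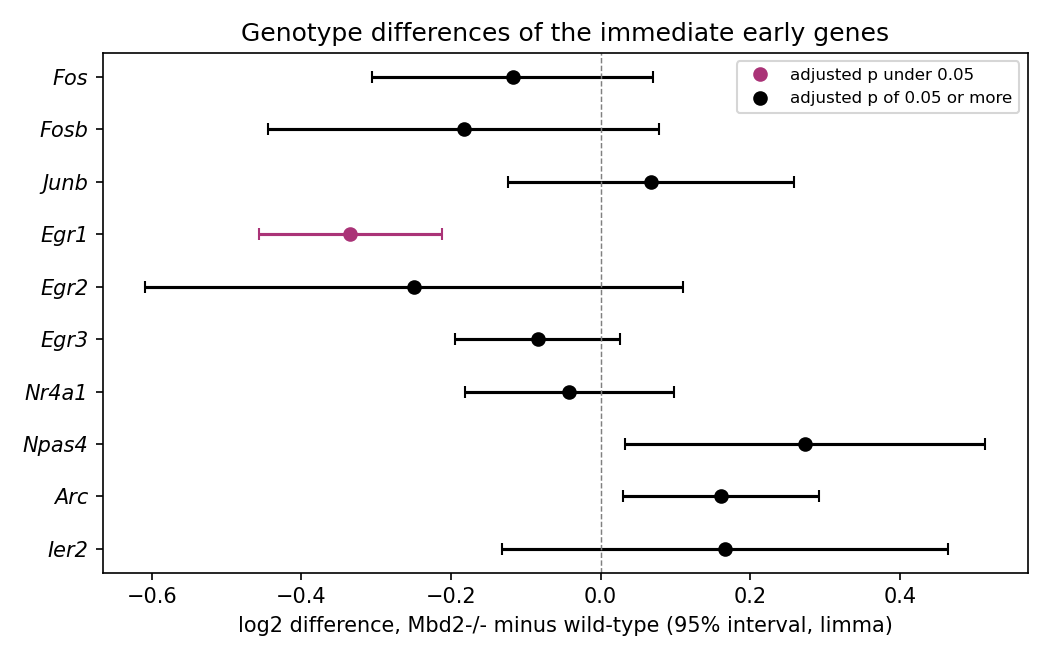
Difference between the mean log2(normalized count + 1) of Mbd2-/- and wild-type libraries for each immediate early gene, with the 95% interval of the limma fit. Egr1, at -0.33, is the gene past the adjusted threshold, and the intervals of Arc and Npas4 also leave out 0 before adjustment.

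Levels were compared between the genes per kilobase of the longest annotated transcript (GENCODE vM1 on mm9), since longer transcripts collect more reads. In wild-type hippocampi the order was Egr3 at 873 ± 8.21 normalized counts per kilobase (SD, n = 4 libraries), Arc at 696 ± 23.7, Egr1 at 474 ± 20.5, Junb at 328 ± 11.8, Nr4a1 at 277 ± 2.72, Fos at 97.3 ± 4.96, Ier2 at 53.0 ± 10.7, Fosb at 30.2 ± 1.12, Npas4 at 22.8 ± 1.82 and Egr2 at 12.2 ± 1.17. The wild-type libraries of neighbouring genes in this order did not overlap. In Mbd2-/- hippocampi they overlapped between Egr3 and Arc, between Egr1 and Junb, between Junb and Nr4a1 and between Npas4 and Fosb, and the last pair changed places. The Egr3 transcript of this annotation, with 1416 bases, is the shortest of the 10, and a longer true transcript would lower its place.

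The spread between libraries was compared as well as the means. On the log2 scale 8 of the 10 genes had a larger SD over the Mbd2-/- libraries than over the wild-type libraries, and Npas4 and Ier2 had a smaller one. Over all tested genes the Mbd2-/- SD was the larger in 70.9%. The median SD of the 10 genes was 0.06 in wild-type and 0.13 in Mbd2-/- libraries, against 0.09 and 0.14 over all tested genes.

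A Levene-type test, which compares absolute deviations from the group mean with limma across all genes, called 0 of the 10 genes and 0.152% of all tested genes, with adjusted p-values of the 10 from 0.540 to 0.982. At an unadjusted p under 0.05 this limma fit gave 1 of the 10, Junb, and 1289 of all tested genes. This test has little reach with 4 libraries a group, so the spread is given as a description.

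Egr3 and Nr4a1 were the steadiest in wild-type hippocampi, with coefficients of variation of 0.94% and 0.98% against 4.19% and 8.63% in Mbd2-/-. Junb went from 3.60% to 15.4%, Arc from 3.41% to 9.17% and Fosb from 3.69% to 18.6%. Mbd2-/- replicate 4, the library that stood apart, was the lowest Mbd2-/- library in Nr4a1, Junb and Arc. The Mbd2-/- coefficients of these genes thus rest in part on it, and they were not computed without it. The variance between wild-type libraries, relative to that expected from counting reads alone, was 0.0858 in Egr3 and 0.0841 in Nr4a1, and it was below 1 in 7 of the 10 genes and in 38.8% of all tested genes. In Mbd2-/- libraries it was 13.6 in Junb and 16.3 in Arc, and below 1 in 3 of the 10 and in 27.2% of all tested genes. The values of Junb and Arc likewise rest in part on Mbd2-/- replicate 4. Ier2 ran the other way, at 3.05 in wild-type and 0.180 in Mbd2-/- libraries, with wild-type replicate 1 far below the rest.

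**Figure D3:**
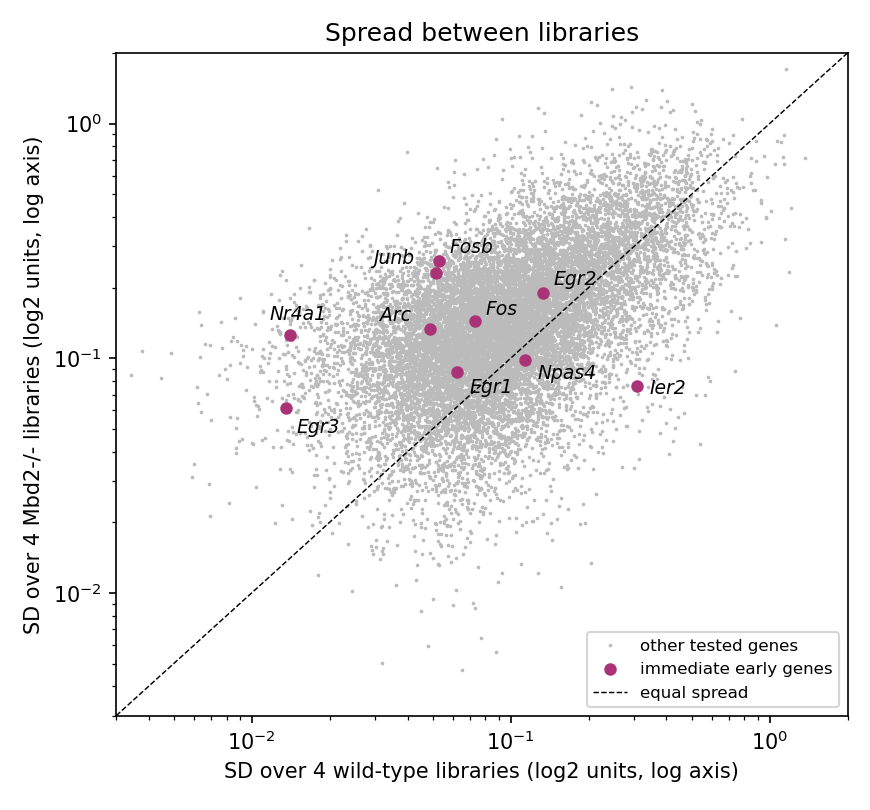
SD of log2(normalized count + 1) over the 4 wild-type libraries (horizontal, log axis) and over the 4 Mbd2-/- libraries (vertical, log axis) for each tested gene in grey and for the immediate early genes in purple. Of the 10 genes, 8 lie above the dashed line of equal spread, and Npas4 and Ier2 lie below it.

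The mean deviation of the 10 genes from their means over all libraries placed the libraries on one scale. It was -0.06, 0.03, 0.04 and 0.06 in wild-type replicates 1 to 4 and 0.06, -0.02, 0.002 and -0.11 in Mbd2-/- replicates 1 to 4, in log2 units, so both groups covered much of the same range. Mbd2-/- replicate 4 was the lowest of the 8 libraries in 5 of the 10 genes, while it was the highest in Npas4. Wild-type replicate 1 was the lowest in 3 and below the other wild-type libraries in 7.

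Other rapid genes of the activity response were tested in the same fit. Of 34 listed genes, 33 were tested, 5 were lower and 1 was higher (limma), where 10.0% of all tested genes were lower and 12.0% higher, and the median log2 difference was -0.03. The genes given with values in this list and the 5 that follow were taken by smallest p-value or highest mean, a rule that uses the results, and the remaining genes called are added by name where stated. Per1, a clock gene that CREB also induces, fell from 1174 ± 45.0 to 954 ± 34.5 normalized counts (SD, n = 4), a log2 difference of -0.30 (SE 0.05, limma adjusted p = 0.00140). Nr4a2, the sister receptor of Nr4a1, fell from 643 ± 10.9 to 527 ± 18.6, and its log2 difference was -0.29 (SE 0.06, limma adjusted p = 0.00285). Both were separated between the groups, as Egr1 was.

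Gadd45b, a stress- and activity-induced gene linked to DNA demethylation, rose from 89.6 ± 13.6 to 121 ± 14.4 (log2 difference 0.44, SE 0.13, limma adjusted p = 0.0224), but it was called in 4 of the 8 fits that left out 1 library and not once the length trend was removed (log2 difference 0.23, limma adjusted p = 0.198). Fosl2, Sik1 and Amigo3 were the other genes called lower, and they fall outside that rule. Jun, the commonest Jun gene of AP-1, was at 1659 ± 52.7 in wild-type and 1694 ± 130 in Mbd2-/- hippocampi (log2 difference 0.03, limma adjusted p = 0.773). The lower count was 3 in DESeq2. Without Mbd2-/- replicate 4 the list had 7 genes lower and 5 higher, in a fit that called 17.7% of all tested genes lower and 17.9% higher. It had 2 lower without Mbd2-/- replicate 2, wild-type replicate 1 or wild-type replicate 2, and 3 lower without Mbd2-/- replicate 1, wild-type replicate 3 or wild-type replicate 4, and its higher count ran from 0 to 2 without any of these.

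The later response, made of targets and effectors that follow the immediate early factors, was measured next. Of 20 genes 5 were lower and 0 higher (limma), against 10.0% and 12.0% of all tested genes. The median log2 difference was -0.18, with 6 of the 20 above 0. Without Mbd2-/- replicate 4 the counts were 7 lower and 1 higher, where 17.7% of all tested genes were lower and 17.9% higher. Sorcs3, a sorting receptor of the postsynapse, fell from 599 ± 16.7 to 464 ± 14.5 (log2 difference -0.37, SE 0.06, limma adjusted p = 6.04e-04). Rasgrp1, a calcium-responsive activator of Ras, fell from 8466 ± 195 to 7038 ± 306, and Pcsk1, a convertase that processes neuropeptides, from 280.3 ± 9.49 to 210.2 ± 12.5. The other 2 genes called, Syt4 and Acan, fall outside the rule.

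Factors and kinases upstream of the immediate early genes were tested in the same fit. Of 17 upstream factors 4 were lower and 2 higher, against 10.0% and 12.0% of all tested genes, with a median log2 difference of -0.14. Elk1, which joins SRF at the promoters of Fos and the Egr genes, had the largest difference of the list. Its normalized counts were 665, 699, 711 and 691 in wild-type and 1306, 1213, 1175 and 1163 in Mbd2-/- replicates 1 to 4. The groups were far apart, with a log2 difference of 0.81 (SE 0.06, limma adjusted p = 2.67e-07). The annotated span of Uxt contains Elk1 on the same strand, and which of them was given shared reads is not stated in the sources used here.

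Mkl1 and Mkl2, the actin-sensitive SRF partners, were lower, with log2 differences of -0.27 and -0.30 (limma adjusted p = 0.00316 and 0.00168). The difference of Mkl2 was -0.17 with the length trend removed. Crtc1 was the other factor called higher, and Crtc3 and Ep300, outside the rule, were the others called lower. The higher count was 1, Elk1 alone, with the replicate number as a block and without Mbd2-/- replicate 1 or 2 or wild-type replicate 1, 2 or 4. The lower count was 2 with the length trend removed, with no filter on low counts and without Mbd2-/- replicate 1 or 2 or without wild-type replicate 1, 3 or 4. Creb1 and Srf were among those that did not pass the test.

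Of 24 genes of upstream signalling, 4 were lower and 1 higher, against the same 10.0% and 12.0%, with a median of -0.06. Camk2a, the kinase of the postsynaptic density, had normalized counts of 67755, 68835, 68731 and 66829 in wild-type and 81232, 83984, 81732 and 80684 in Mbd2-/- libraries. It rose by 0.27 on the log2 scale (SE 0.03, limma adjusted p = 1.38e-04). Cacna1c, an L-type calcium channel, and Grin2a, an NMDA receptor subunit, were lower by log2 differences of -0.29 and -0.27 (limma adjusted p = 0.00246 and 0.00543). With the length trend removed the difference of Cacna1c was -0.17, and 2 genes of the list were higher. The other genes called lower, Grin1 and Grin2b, also encode NMDA receptor subunits and fall outside the rule. Without Mbd2-/- replicate 4 the counts were 9 lower and 2 higher for the factors and 9 lower and 3 higher for signalling, where the shares of all tested genes were 17.7% lower and 17.9% higher.

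**Figure D4:**
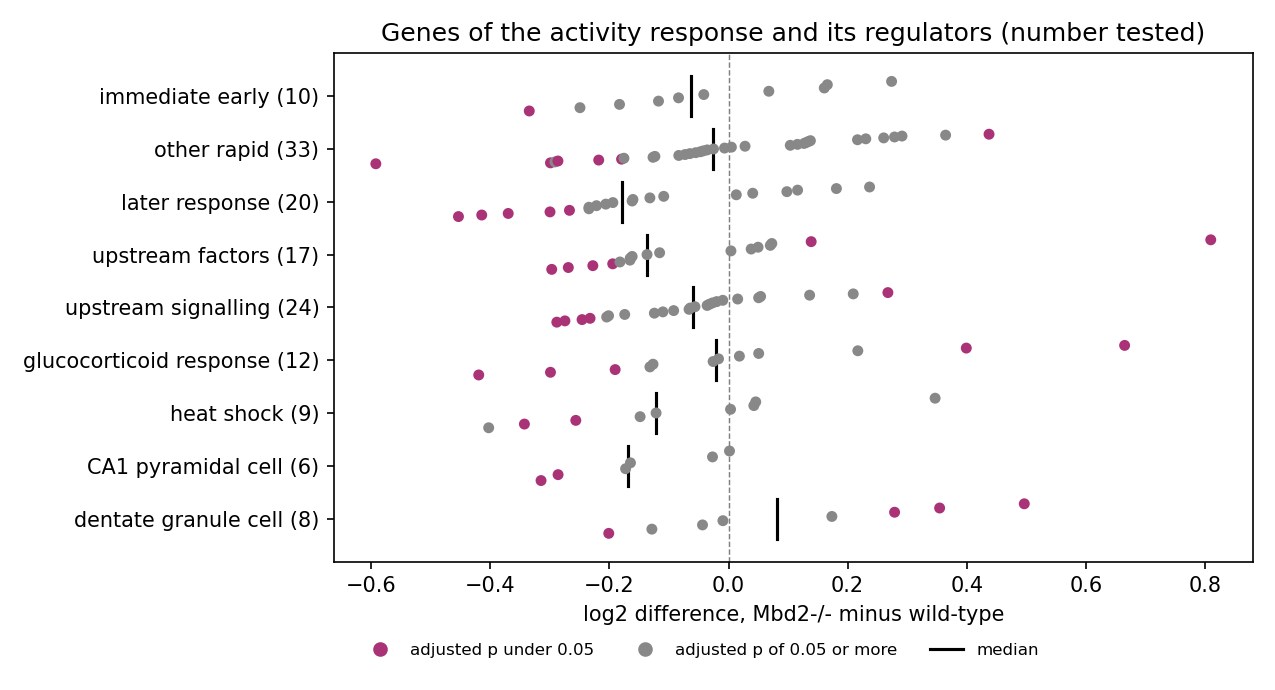
Difference in log2(normalized count + 1) between Mbd2-/- and wild-type libraries for each tested gene of 9 lists, with purple points past the adjusted threshold of the limma fit and a black line at the median of a list. Elk1 is the point at 0.81, and the medians of the later response and of the upstream factors lie at -0.18 and -0.14.

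Lists for stress hormones and heat shock were measured beside these, since both kinds of gene respond to what an animal meets before death. Of 12 glucocorticoid-responsive genes 3 were lower and 2 higher, against 10.0% and 12.0% of all tested genes, with a median of -0.02. Zbtb16, a sensitive target of the receptor, was lower by a log2 difference of -0.42 (limma adjusted p = 2.51e-04), and Mt1, a metallothionein, was higher by 0.67 (limma adjusted p = 4.36e-04). With the length trend removed Mt1 was at 0.34, and 1 gene of the list was higher. Per1 is in this list and in that of the other rapid genes. Of 9 heat shock genes 2 were lower and 0 higher, against the same shares, with a median of -0.12. Hsph1 had a log2 difference of -0.26 (limma adjusted p = 0.00116) and Hspa1b one of -0.34 (limma adjusted p = 0.0420), the second of which lost its call under 3 of 8 settings with all libraries kept and in 6 of 8 fits that left out 1 library. Their part in the results on the immediate early genes was not tested.

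Markers of cell types were tested in the same fit, in which 10.0% of all tested genes were lower and 12.0% higher. For CA1 pyramidal cells, which express Egr1 strongly at rest, 2 of 6 markers were lower and 0 higher, namely Wfs1 with a log2 difference of -0.31 (limma adjusted p = 7.93e-04) and Fibcd1 with -0.29 (limma adjusted p = 0.00318). Their summed level ran from 8006 to 8232 normalized counts in wild-type and from 6869 to 7517 in Mbd2-/- libraries. Of 8 dentate granule cell markers 3 were higher and 1, Prox1, was lower, the last no longer called in 5 of 8 fits that left out 1 library. The lower count was 2 without Mbd2-/- replicate 4, and their sums of 7461 to 7559 and 7389 to 7761 overlapped. Of 4 measured CA3 markers 1 was higher, or 2 without Mbd2-/- replicate 4, and 2 of the 4 differences were above 0. Their sums, from 3024 to 3109 in wild-type and from 3326 to 3617 in Mbd2-/- libraries, did not overlap, and the gene called, Bok, had means of 977 and 1405, whereas Grik4 had means of 734 and 682 and Cpne4 of 1309 and 1275. Of 8 interneuron markers 3 were higher and 2 lower, or 0 higher and 3 lower with the length trend removed.

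Markers of non-neuronal cells were higher in 4 of 7 for astrocytes, 5 of 7 for oligodendrocytes, 6 of 8 for microglia and 2 of 8 for endothelial cells, with 0 lower in each of these lists, where 12.0% of all tested genes were higher and 10.0% lower. The microglial count was 2 with the length trend removed and 3 without wild-type replicate 1 or 3, and the endothelial count was 1 without wild-type replicate 1, 3 or 4, with 1 lower without Mbd2-/- replicate 4. Summed levels in wild-type and Mbd2-/- libraries ran from 105586 to 108187 and from 114859 to 139064 for astrocytes, and from 75168 to 76475 and from 88853 to 95184 for oligodendrocytes. They ran from 4364 to 4519 and from 4803 to 5587 for microglia, and from 2307 to 2406 and from 2484 to 2665 for endothelial cells, so the groups did not overlap in any of these 4 sums. For the choroid plexus, the epithelium that makes cerebrospinal fluid, 12 of 12 were higher. Ttr, its leading transcript, rose from 12761 ± 648 to 32066 ± 3323 (log2 difference 1.32, limma adjusted p = 3.42e-09), and the summed level of the list ran from 14741 to 15942 in wild-type and from 31577 to 39065 in Mbd2-/- libraries.

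Of 10 thalamic markers 7 were lower and 0 higher, against 10.0% and 12.0% of all tested genes, with sums of 4651 to 4826 in wild-type and 3183 to 3856 in Mbd2-/- libraries. Of 6 measured striatal markers 1 was higher and 1 lower, and of 7 neocortical markers 0 were higher and 2 lower, beside the same shares. The striatal lower count was 0 at a mean count of at least 50 and 2 without Mbd2-/- replicate 4. The neocortical counts were 1 higher and 1 lower with the length trend removed, and the lower count was 0 or 1 in the fits that left out 1 library other than Mbd2-/- replicate 4. The choroid plexus and thalamic sums, like those of CA1, CA3 and the 4 non-neuronal lists above, did not overlap between the groups. Neither did the sums of the other rapid, later response, upstream factor and upstream signalling lists. The tissue taken and the genotype cannot be told apart in these libraries, and the part of the marker lists in the difference of Egr1 was not tested. Each marker measured in these lists had a mean normalized count of at least 10.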

How the data were processed

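Hippocampal RNA of 4 wild-type and 4 Mbd2-/- pools was depleted of ribosomal RNA with RiboMinus and sequenced as paired ends of 100 bases. Duplicate reads were removed by the authors, STAR mapped what remained to mm9 and DESeq2 tested genotype; tool versions and the read counter are not given in the sources used here. The deposited signal is a normalized count per gene, in which the authors divided reads by a DESeq2 size factor per library. The other 6 columns, the mean and the fold change, standard error, statistic and p-values of the authors' own comparison, were not used.

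The smallest value above 0 of a library equals 1 read and lay between 0.531 and 1.59. Division by it gave back the reads, whole to within 0.01 for 100.0% of values. Genes with a mean of at least 10 were tested on log2(value + 1) with limma 3.58.1 (trend, robust) in R 4.3.3 with calls at 0.05 after Benjamini-Hochberg adjustment. Fold changes are on that scale and understate those of low genes. Tested on simulated data of 14504 genes built from these libraries, the genotype fit recovered 65.7%, 88.1% and 93.9% of genes changed 1.3-, 1.5- and 2-fold, with 10 false calls. The spread test was tried on normal noise of equal SD for all genes, not taken from these libraries. There it recovered 7% of genes whose SD was raised 8-fold in Mbd2-/-. Intervals and depth cover counting and pool-to-pool error only, as no molecular identifiers separate PCR copies from molecules. Single values had an exact two-sided permutation test.

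Alternatives were edgeR 4.0.16 (quasi-likelihood, TMM) and DESeq2 1.42.0 on recovered reads, TMM scaling, no filter and a mean of at least 50, a pseudocount of 0.5, removal of the trend with transcript length (lowess, span 0.3), the replicate number as a block and each library left out. Replicate numbers pair no animals in the labels, and the correlations of the deviations of same-numbered libraries were -0.10, -0.06, 0.07 and 0.04, so the main fit had no block. Symbols were matched to GENCODE vM1 on mm9, 16812 directly and 1285 through a synonym.

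The genes and lists were chosen with earlier results of these data known. Named were the 10 immediate early genes, Mbd2, the 3 smallest p and 2 highest means of each pathway list, the 2 highest means and called genes of each marker list, and the 5 genes most like the mean of the set, which are not reported here.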

Additional observations from a re-analysis of the deposited data

Results flagged for a closer look

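Among groups of 4 libraries, a library was set aside for a closer look where its gap to the nearest other library, divided by the range of the group, exceeded the 95% critical value of Dixon's test for 4 samples. Of 64 groups examined 4 held such a library, near the 1 in 20 that chance gives. Npas4 in Mbd2-/- replicate 4 had a normalized count of 99.9, and the other Mbd2-/- libraries lay between 86.8 and 87.7. Gadd45b in the same library had 99.9, against 127 to 131 in the others. Fibcd1 there had 1555, against 1798 to 1829 in the other Mbd2-/- libraries. Grin2a in wild-type replicate 2 had 2642, against 3017 to 3064 in the other wild-type libraries.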

How the results depend on the processing

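The fit with the replicate block called 0 of the immediate early genes higher and 1 lower, as without it, and of the genes given with values it changed the call of 1, Hspa1b (log2 difference -0.34, adjusted p = 0.0514 in limma). Of 159 values of the 10 genes under the alternatives, 153 kept direction and side of the threshold, 3 gained a call and 3 turned in sign. Those that turned were Junb at -0.0539 with the length trend removed, Junb with 1 library left out, at -0.00326 (without Mbd2-/- replicate 1) to 0.172 (without Mbd2-/- replicate 4), and Nr4a1, at -0.0888 to 0.0123 without the same libraries. Jun ranged from -0.0158 without Mbd2-/- replicate 3 to 0.0735 without Mbd2-/- replicate 4. With the length trend removed the fit called 2114 genes, 1148 higher and 966 lower, and 2 of the 10 genes lower. The second was Egr3 at -0.26 (limma adjusted p = 0.00565), a value that rests on its short annotated transcript of 1416 bases. The mean of the 10 differences was -0.09 in that fit. Egr2 was not tested at a mean of at least 50.

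With 1 library left out, genes called ranged from 2073 (without wild-type replicate 3) to 5156 (without Mbd2-/- replicate 4), higher calls from 1170 to 2598, lower calls from 868 (without wild-type replicate 1) to 2558, and the immediate early genes called higher from 0 to 2. The mean log2 difference of the 10 genes, -0.03 with all libraries, ranged from -0.06 to -0.003. Mbd2 lost its call in 3 of the 8 such fits. Genes called for spread numbered 22, and 5 with deviations from the group median, 324 with no filter and 0 to 3 with 1 library left out, while 0 of the 10 genes were called in each. The causes were not tested. Egr2, Npas4, Ier2 and Fosb had the lowest mean normalized counts of the 10 genes.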
